A study of Mus musculus with 14 samples.

Results

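The effect of the Atg14 genotype on effector regulatory T cells (eTregs) was read from 7 of the 14 arrays of the series, 3 of eTregs labelled KO and 4 of eTregs labelled control, all chosen by their labels alone. Regulatory T cells (Tregs), a branch of the CD4+ lineage defined by the transcription factor Foxp3, restrain immune responses. The series set eTregs, the activated subset, beside central Tregs (cTregs), the resting subset, to ask which transcripts depend on Atg14 in each. Total RNA was hybridised to Clariom S mouse arrays, on which each gene is read by a transcript cluster, a set of probes summarised to 1 signal.

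Every Treg profiled carried the Foxp3 YFP-Cre allele, which restricts Cre and the sorting marker YFP to Foxp3-expressing cells. Cells labelled KO were Atg14 fl/fl, and control cells were Atg14 +/fl, so Cre acted on 1 floxed copy in the controls too. Marrow of either CD45.2+ genotype had been mixed 1:1 with CD45.1+ wild-type marrow and had repopulated sublethally irradiated Rag1-/- hosts over 6 to 8 weeks. Such hosts cannot make T or B cells but keep myeloid and NK cells of their own, and wild-type cells of the spike were present in every chimera. eTregs were sorted as CD45.2+ CD4+ Foxp3-YFP+ cells, a gate that leaves out the CD45.1+ spike, with an activated surface phenotype, including high CD44, from spleen and peripheral lymph nodes per the labels. The study's description gives as many chimeras of each genotype as there are arrays in each subset, but the labels do not tie an array to a host, and P values measure the spread between these arrays.

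Atg14 is a subunit of a complex built around Vps34, a lipid kinase that makes phosphatidylinositol 3-phosphate on internal membranes. The Atg14-containing complex starts autophagosomes, the vesicles that carry cytoplasm to the lysosome for breakdown, whereas a related complex with Uvrag acts on endosomes. eTregs are known for high turnover, dependence on T cell receptor signals and surface molecules such as TIGIT, ICOS and KLRG1.

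Signals are given on the log2 scale of robust multi-array average (RMA) values, so 1 unit is a doubling. Transcripts were taken to rise or fall at the study threshold, an absolute log2 difference of at least 0.5 with an unadjusted limma P below 0.05. The adjusted threshold asked in addition for a Benjamini-Hochberg adjusted P below 0.05 over all 22203 transcript clusters with a gene symbol. At the study threshold 422 transcript clusters rose in eTregs labelled KO, 1.90% of those tested, and 182 fell, 0.820%, together 2.72%. The adjusted threshold was passed by 26 (0.117%), of which 16 were higher and 10 lower. All 26 had no array of one group inside the range of the other, as did 6.85% of all transcript clusters. The median log2 difference over all transcript clusters was -0.02, and 44.2% were higher in eTregs labelled KO.

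Array KO eTreg 1 stood apart from the other arrays labelled KO. Its signals correlated with those of the 4 control eTreg arrays at 0.984 to 0.987 and with KO eTregs 2 and 3 at 0.975 and 0.976, while KO eTregs 2 and 3 correlated at 0.988. Control eTreg 1 was apart from its group to a lesser degree. It correlated with control eTregs 2 to 4 at 0.984 to 0.988, and those correlated with each other at 0.993 to 0.994. Of the 422 rises, 179 had KO eTreg 1 inside the control range and 71 had it below that range, with KO eTregs 2 and 3 above every control. Of the 112 rises of at least 1 log2 unit, 89 were not above all controls in KO eTreg 1. Without this array 803 transcript clusters rose (3.62%) and 301 fell (1.36%), and 452 passed the adjusted threshold (2.04%). Of the 422 rises 385 remained, of the 182 falls 133, and of the 26 adjusted calls all 26. Values without KO eTreg 1 are therefore given beside each group of genes that rests on it. All 26 adjusted calls also stayed at the study threshold in each of the 22 alternatives of processing in which they were tested. With dim transcript clusters left out, 24 of the 26 were tested and kept their adjusted call.

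**Figure D1:**
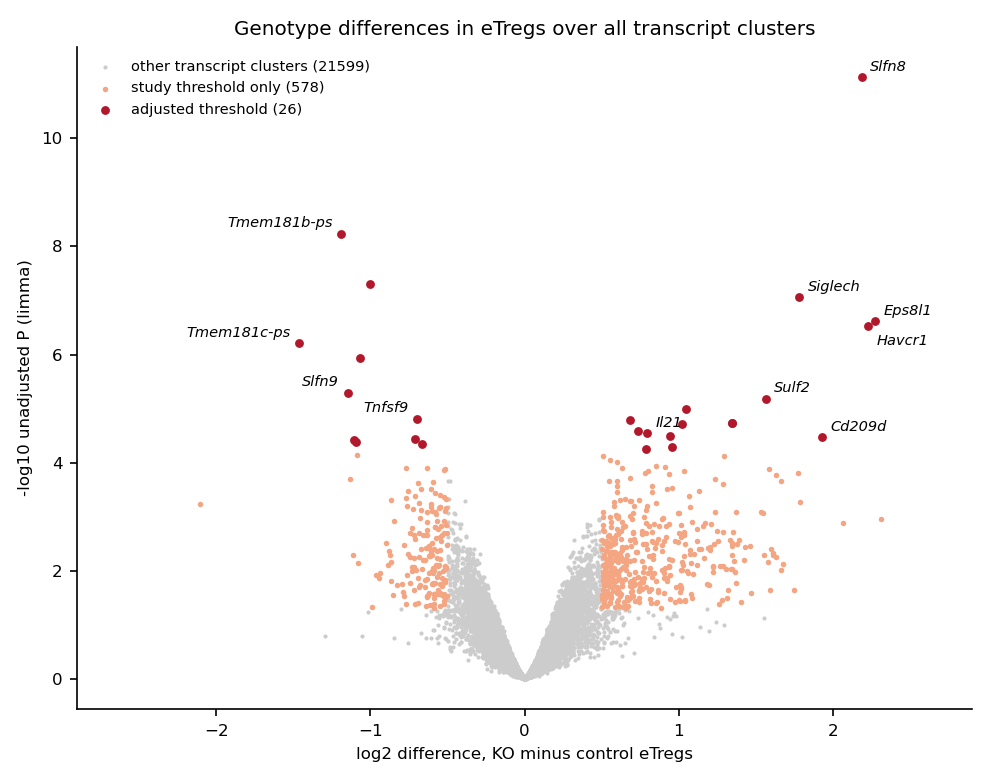
Each point is 1 of the 22203 transcript clusters. The x axis gives the log2 difference of eTregs labelled KO minus control eTregs and the y axis the negative log10 of the unadjusted limma P. Dark red points are the 26 at the adjusted threshold and orange points those at the study threshold only, with the rest in grey. Slfn8 lies highest, and the orange points are denser on the right.

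The scatter of all transcript clusters shows how the bulk of the differences is spread. The right arm holds more points than the left, and most of the named points stand clear of both arms.

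The targeted gene was read first. Atg14 (TC1400001937.mm.2) was at 9.15, 9.004 and 9.32 in KO eTregs 1, 2 and 3 and at 8.92, 9.01, 8.77 and 8.64 in control eTregs 1 to 4. It was thus not lower in arrays labelled KO, with a log2 difference of 0.32 ± 0.14 (SE, limma adjusted P = 0.550; exact 2-sided permutation P = 0.0857, where the smallest possible is 0.0286). Which exons the probes of this transcript cluster cover is not given in the sources used here, so the value does not check the deletion, and groups are called by their labels throughout. Foxp3 was at 12.78 to 13.12 in eTregs labelled KO and 12.76 to 12.92 in controls, and Cd4 and Cd3e, which define CD4 T cells, lay between 12.56 and 13.25 in all 7 arrays. The sorting gene Cd44 was at 10.60 in KO eTreg 1, below all other eTreg arrays (10.95 to 11.52).

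A pair of clear differences lay in the Schlafen family, interferon-responsive genes named for their effect on lymphocyte growth. Slfn8 (TC1100003382.mm.2) was at 11.81, 11.71 and 11.85 in eTregs labelled KO and at 9.73, 9.52, 9.69 and 9.47 in controls. All 3 arrays labelled KO stood far above every control, KO eTreg 1 included. The difference was 2.19 ± 0.12 (SE), or 4.55-fold (adjusted P = 1.64e-07). Its neighbour Slfn9 moved the other way. Slfn9 was at 10.36, 9.39 and 9.99 in eTregs labelled KO and at 11.05, 11.14, 10.95 and 11.10 in controls, a fall of 2.22-fold (log2 -1.15 ± 0.17, SE, adjusted P = 0.0126; 0.0502 without control eTreg 4 and 0.160 in a fit of the eTreg arrays only). No other member of the 9 Schlafen transcript clusters passed the study threshold. Slfn10-ps, a pseudogene, came closest at a log2 difference of 0.50 (adjusted P = 0.312), Slfn3 was at 0.29 and Slfn1 at 0.23. Slfn2, which is known to hold T cells quiescent, was at -0.01, and Slfn5 at -0.06.

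Slfn8 and Slfn9 lie side by side on chromosome 11, with 0 protein-coding genes or transcribed pseudogenes between them in the RefSeq annotation of GRCm38.p6. Their promoters are printed because the pair changed in opposite directions although their start regions are alike. Each runs from 250 bases before to 50 after the annotated start, 5′ to 3′ on the coding strand (minus), from RefSeq. Capitals mark the core of the interferon-stimulated response element, searched as GAAANNGAA on both strands. The Slfn8 window is chr11:83020761-83021060 and the Slfn9 window chr11:82991781-82992080.
Slfn8: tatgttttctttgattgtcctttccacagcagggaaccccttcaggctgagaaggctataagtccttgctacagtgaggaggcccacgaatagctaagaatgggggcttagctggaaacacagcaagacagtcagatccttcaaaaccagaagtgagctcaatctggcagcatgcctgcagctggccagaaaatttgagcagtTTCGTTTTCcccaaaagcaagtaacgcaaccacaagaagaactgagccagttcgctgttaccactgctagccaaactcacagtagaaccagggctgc
Slfn9: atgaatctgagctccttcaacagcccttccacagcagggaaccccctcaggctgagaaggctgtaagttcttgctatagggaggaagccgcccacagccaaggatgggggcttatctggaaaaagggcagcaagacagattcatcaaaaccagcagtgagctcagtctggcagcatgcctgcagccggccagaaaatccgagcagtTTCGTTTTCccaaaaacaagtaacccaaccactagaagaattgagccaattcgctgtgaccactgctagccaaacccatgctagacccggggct
Aligned to each other, these windows were identical at 247 of 305 columns (81.0%). In both it lies on the opposite strand, so that the capitals read as its reverse complement, and begins at base -47 from the start of Slfn8 and -44 from that of Slfn9. It was found in 4 of the 8 Schlafen promoters in the table (Slfn5, Slfn8, Slfn9 and Slfn14) and in 8.56% of all 32851 promoters. The genes are close copies, and whether probes of one also bind transcripts of the other was not tested.

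The Tmem181 family on chromosome 17 fell as a whole. Tmem181b-ps, a pseudogene copy, was at 10.88, 10.89 and 10.75 in eTregs labelled KO and at 11.90, 12.18, 12.05 and 11.98 in controls (log2 -1.19 ± 0.11, SE, adjusted P = 6.48e-05). Tmem181c-ps was at 9.40, 9.09 and 9.13 against 10.27, 10.93, 10.87 and 10.61 (log2 -1.46 ± 0.18, SE, adjusted P = 0.00194). Tmem181a, which encodes a transmembrane protein, was at 10.65, 10.74 and 10.46 against 11.43, 11.69, 11.70 and 11.65 (log2 -1.002 ± 0.10, SE, adjusted P = 0.000369). All 3 members were lower in each array labelled KO than in any control, and none lost its adjusted call in any of the 22 alternatives. The copies resemble each other closely, so their probes may share signal, which was not tested.

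Eps8l1 (TC0700000033.mm.2), of the EPS8 family of adaptors that link receptors to actin, was at 9.46, 9.67 and 9.46 in eTregs labelled KO and at 7.59, 7.23, 7.21 and 6.99 in controls. The 3 arrays labelled KO were nearly level and lay well clear of the controls. The difference was 2.27 ± 0.26 (SE), or 4.83-fold (adjusted P = 0.00106), and it too held in all 22 alternatives. Masp2, a serine protease of the lectin pathway of complement, was at 8.79, 9.22 and 8.91 against 7.65, 7.70, 7.48 and 7.71, 2.53-fold higher (adjusted P = 0.0265). Rab6b, a small GTPase of Golgi transport, was at 7.91, 8.41 and 7.81 against 9.09, 9.22, 9.23 and 9.06, 2.16-fold lower (adjusted P = 0.0385). The long non-coding RNA 4930481A15Rik fell by 1.07 on the log2 scale (adjusted P = 0.00325; 0.112 in a fit of the eTreg arrays only), from 10.57 to 11.08 in controls to 9.61 to 10.17.

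**Figure D2:**
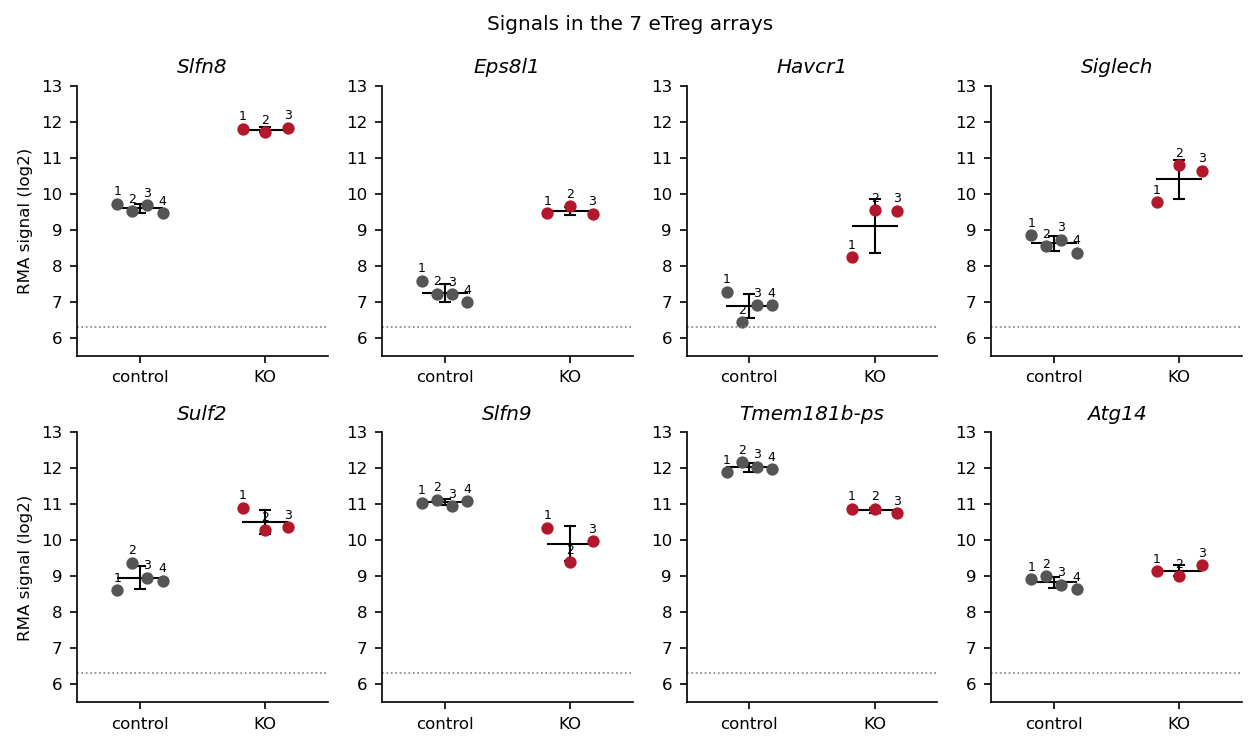
RMA signals (log2, y axis) of 8 genes in the 7 eTreg arrays. Points are single arrays numbered as in the labels, horizontal marks are group means with SD bars, and the dotted line at 6.30 is the background limit. Slfn8 and Eps8l1 are tight in both groups, Havcr1 and Siglech have KO eTreg 1 lowest of the 3 arrays labelled KO, Sulf2 has it highest, and Atg14 overlaps between groups.

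The panels of single arrays set genes with tight groups beside genes with wide ones. Havcr1 encodes TIM-1, a phosphatidylserine receptor, and was at 8.25, 9.56 and 9.53 in eTregs labelled KO against 7.28, 6.44, 6.91 and 6.91 in controls (log2 2.23 ± 0.26, SE, adjusted P = 0.00110). Siglech encodes a lectin that marks plasmacytoid dendritic cells, and was at 9.78, 10.79 and 10.65 against 8.86, 8.55, 8.73 and 8.37 (log2 1.78 ± 0.19, SE, adjusted P = 0.000483). In both genes KO eTreg 1 was the lowest of its group but still clear of the highest control. Without it the differences were 2.66 for Havcr1 and 2.09 for Siglech, and a fit of the 7 eTreg arrays alone gave Havcr1 an adjusted P of 0.0578. Sulf2, an extracellular enzyme that trims sulfate from heparan sulfate chains, was at 10.91, 10.30 and 10.36 against 8.62, 9.38, 8.97 and 8.88 (log2 1.56 ± 0.24, SE, adjusted P = 0.0145). Here KO eTreg 1 was the highest array, and the difference was 1.37 without it. The adjusted P of Sulf2 was 0.0519 without control eTreg 3, 0.0547 without control eTreg 4 and 0.0573 with the replicate number as a block.

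The remaining adjusted calls were smaller or less steady. Cd209d, a C-type lectin receptor of antigen-presenting cells, was at 7.65, 9.31 and 9.74 against 6.54, 7.196, 7.16 and 6.98 (log2 1.93, adjusted P = 0.0374). Among secreted and surface signalling molecules, Il21, a cytokine that drives B cell help, was at 9.11, 9.15 and 8.99 against 8.49, 8.20, 8.46 and 7.99 (log2 0.80, adjusted P = 0.0354). Tnfsf9, the ligand of the costimulatory receptor 4-1BB, was at 7.52, 7.50 and 7.64 against 8.11, 8.398, 8.24 and 8.25 (log2 -0.70, adjusted P = 0.0265). For both, the arrays labelled KO lay close together and clear of the controls. Scp2, which carries sterols and other lipids, rose by 1.05 (adjusted P = 0.0202) and Retsat, which reduces retinol, by 0.94 (0.0374). Adam22, a catalytically inactive member of the ADAM family, rose by 1.35 (0.0265), the transporter Slco4a1 by 1.02 (0.0265), the folate receptor Folr2 by 0.79 (0.0485), and Rasgrp4, an activator of Ras, by 0.69 (0.0265). Control eTreg means of Adam22 (6.17) and Slco4a1 (5.87) lay under the background limit of 6.30, so the sizes of these rises are not exact. 1700025G04Rik rose by 0.96 (0.0462) and Tyw3, a tRNA-modifying enzyme, by 0.74 (0.0343). Armcx2 fell by 0.67 (0.0417), Gm5796 by 0.71 (0.0385) and Ica1, an islet autoantigen linked to secretory granules, by 1.09 (0.0405), where the mean in eTregs labelled KO (5.397) was under background.

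These calls moved with single arrays at the adjusted threshold. The call of Masp2 was lost without KO eTreg 2 (adjusted P = 0.125), KO eTreg 3 (0.0831) or control eTreg 2 (0.0634), 3 (0.0786) or 4 (0.0709). Scp2 lost it without KO eTreg 2 (0.0964) or control eTreg 3 (0.0557) or 4 (0.0709), and Adam22 and Slco4a1 without KO eTreg 2 (0.0610 for both), KO eTreg 3 (0.0556 and 0.139), control eTreg 3 (0.0786 for both) or control eTreg 4 (0.0709 and 0.0793). Rasgrp4 lost it without KO eTreg 2 (0.125) or control eTreg 2 (0.0669), 3 (0.0673) or 4 (0.0823), and Tnfsf9 without KO eTreg 2 (0.106), KO eTreg 3 (0.0556) or control eTreg 2 (0.0691), 3 (0.0737) or 4 (0.0713). The calls of the other 10 were each lost without any 1 of several arrays of the 14. The numbers of such arrays, with the highest adjusted P, were 7 for Tyw3 (0.125), 8 for Il21 (0.138) and Rab6b (0.171), 9 for Retsat (0.125), and 11 for 1700025G04Rik (0.170), Armcx2 (0.175) and Gm5796 (0.139). They were 12 for Ica1 (0.153) and 13 for Cd209d (0.154) and Folr2 (0.188). A limma fit of the eTreg arrays only kept 8 of the 26 calls. Its adjusted P was 0.366 for 1700025G04Rik, 0.338 for Cd209d, 0.319 for Ica1, 0.302 for Adam22 and 0.261 for Retsat. For Folr2 it was 0.217, for Slco4a1 0.21, for Tyw3 and Gm5796 0.194, for Il21 0.178 and for Armcx2 0.142. Rasgrp4 and Tnfsf9 were at 0.112, and Scp2 and Rab6b at 0.0505. None of the 26 lost its call without KO eTreg 1, and all 26 kept their direction in each alternative in which they were tested.

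Outside the adjusted calls, the largest differences without overlap were less even between arrays. Xlr, an X-linked lymphocyte gene, was at 8.32, 8.96 and 9.71 in eTregs labelled KO and at 6.63, 6.76, 6.93 and 6.43 in controls (log2 2.31, adjusted P = 0.188; 0.0405 without KO eTreg 1). Lima1, which bundles actin filaments, differed by 2.07 and Tns3, a focal adhesion protein, by 1.59, with KO eTreg 1 lowest of its group for both. Of the falls, Mctp1, a membrane protein with C2 domains, was at 4.63, 5.66 and 5.83 against 7.19, 6.73, 7.83 and 8.17 (log2 -2.10, adjusted P = 0.146). Mctp1, Gm14092 (-1.13), BC051142 (-1.11) and Gm10944 (-1.09) had means under the background limit in eTregs labelled KO, and the receptor gene Gpr52 (-0.99) did not.

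Whether these differences belong to eTregs was tested against cTregs in the same fit. No transcript cluster passed the adjusted threshold for the interaction of genotype and subset in limma, where the lowest adjusted P was 0.107 and 1358 reached an unadjusted P below 0.05. In cTregs 10 transcript clusters passed the adjusted threshold (0.0450%), and 8 of the 26 eTreg calls were among them, all in the same direction. These were Slfn8, Eps8l1, Slfn9, Rab6b, 4930481A15Rik and the 3 Tmem181 copies. In cTregs Slfn8 was at 11.69, 11.81 and 11.82 in arrays labelled KO and at 9.65, 9.18, 9.18 and 9.25 in controls, the same separation as in eTregs. For 17 of the 26 the cTreg difference was under 0.5 log2 units in size. How many of all transcript clusters lie under that size was not counted, so this number does not set the 17 apart.

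Havcr1, Siglech and Sulf2 were the markers whose values in cTregs looked least like those in eTregs. In cTregs Siglech lay between 7.96 and 8.30 in all 7 arrays, and Havcr1 between 6.66 and 7.23. Sulf2 was at 9.70, 9.71 and 10.24 in cTregs labelled KO and at 10.98, 10.19, 9.98 and 10.13 in control cTregs, a log2 difference of -0.44. Control eTregs held less Sulf2 than control cTregs by 1.36 (adjusted P = 0.00153), and eTregs labelled KO were at the level of control cTregs. The interaction was 2.07 for Havcr1 (adjusted P = 0.219), 1.72 for Siglech (0.113), 2.00 for Sulf2 (0.151) and 1.08 for Rasgrp4 (0.107). Il21 differed by 0.19 and Tnfsf9 by 0.02 in cTregs, with interactions of 0.60 (0.736) and -0.72 (0.527).

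**Figure D3:**
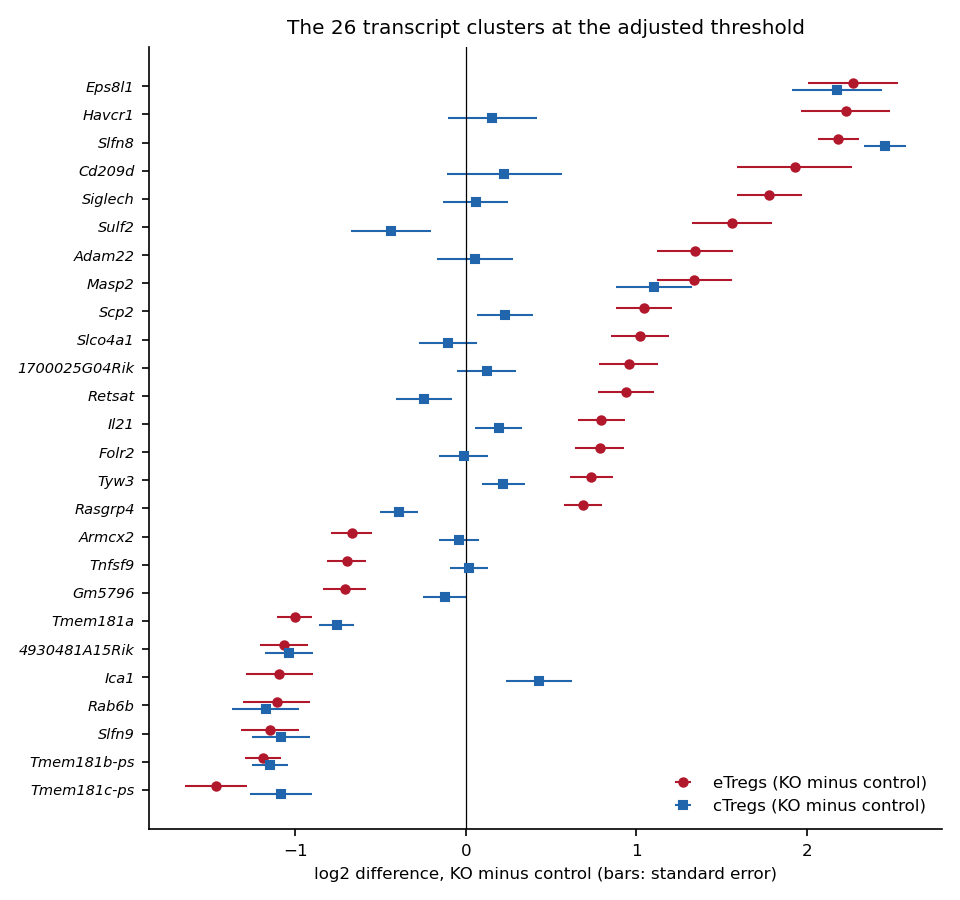
Log2 difference of arrays labelled KO minus control arrays (x axis) in eTregs (red circles) and cTregs (blue squares) for the 26 transcript clusters at the adjusted threshold in eTregs; bars are standard errors. For Slfn8, Eps8l1, Slfn9, Rab6b, 4930481A15Rik and the Tmem181 copies both points lie on the same side, while for Havcr1, Siglech and Adam22 the cTreg point lies near 0.

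The plot of both subsets places the 26 in order of their eTreg difference, which chose them, while the cTreg points took no part in the choice. They are not independent of the eTreg points, since both subsets were sorted from the same set of chimeras. Deviations of eTreg and cTreg arrays of the same number and genotype from their group means correlated at 0.30, 0.29 and 0.04 for the arrays labelled KO and at 0.22, 0.15, 0.10 and 0.07 for the controls.

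Markers of monocytes and macrophages, cells that engulf and digest, were higher in 2 of the 3 arrays labelled KO. Of 26 markers of monocytes and macrophages 13 rose and 0 fell, with a median log2 difference of 0.92, where 1.90% of all transcript clusters rose. Csf1r, the receptor of the macrophage growth factor CSF1, was at 8.99, 11.90 and 11.69 in eTregs labelled KO and at 9.24, 9.70, 9.18 and 9.12 in controls. Mrc1, the mannose receptor, was at 7.29, 11.29 and 10.64 against 8.15, 8.80, 7.79 and 7.86. KO eTregs 2 and 3 were far above every control for both genes, and KO eTreg 1 was below all of them. Lyz2, the macrophage lysozyme, was at 8.60, 11.62 and 11.67 against 9.14, 10.26, 8.98 and 9.03, and Fcgr3, an IgG receptor, at 9.40, 11.17 and 11.59 against 9.02, 9.12, 9.21 and 9.004. Of these, Fcgr3 did not overlap between groups. The other macrophage markers that rose were Lyz1 (1.61), Spic (1.46), Timd4 (1.39), Adgre4 (1.35), Fcgr4 (1.22), C1qc (1.12), Cd68 (1.02), Adgre1 (0.93), a surface receptor widely used to mark macrophages, and C1qb (0.90). Marco differed by 0.19, Cx3cr1 by 0.24 and Msr1 by -0.04.

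Measured array by array, the macrophage list rested on KO eTregs 2 and 3. The median over the 26 markers of signal minus the control mean was 1.55 in KO eTreg 2, 1.499 in KO eTreg 3 and -0.29 in KO eTreg 1, against -0.15 to 0.06 in the controls. The summed linear signal of the list was 9874 in KO eTreg 1, 37170 in KO eTreg 2 and 38400 in KO eTreg 3, against 11290 to 13920 in controls. A quality measure moved with it, as the log2 signal of positive minus negative control probe sets was 2.68 in KO eTreg 1, 3.18 in KO eTreg 2 and 2.93 in KO eTreg 3 against 2.51 to 2.74 in controls, and its part was not tested. Without KO eTreg 1, 20 of the 26 rose, with a median of 1.64, and 19 passed the adjusted threshold. Leaving out KO eTreg 2 or KO eTreg 3 gave 6. In sorted bulk samples, more cells of another type and more RNA of these genes per cell cannot be told apart.

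Antigen presentation by MHC class II, the task of macrophages, dendritic cells and B cells, showed the same pattern. Of 11 transcript clusters 7 rose (1.90% of all did) and 0 fell, with a median of 0.82, and all 11 were higher (44.2% of all). H2-Ab1 was at 10.57, 12.40 and 12.78 in eTregs labelled KO and at 10.74, 10.87, 10.82 and 10.61 in controls (log2 1.16, adjusted P = 0.312). H2-Eb1 was at 10.74, 12.62 and 12.998 against 10.90, 11.28, 11.28 and 10.98 (log2 1.01, adjusted P = 0.476). For both chains KO eTreg 1 was below the lowest control and KO eTregs 2 and 3 were above the highest. H2-DMb2 (1.08), H2-DMb1 (1.04) and H2-DMa (0.63), which load peptide onto class II, rose too, as did H2-Aa (0.94) and Cd74 (0.82), the invariant chain. Ciita, the master regulator of these genes, was at 0.49 and did not reach the threshold. The median deviation of the list was -0.19 in KO eTreg 1, 1.18 in KO eTreg 2 and 1.49 in KO eTreg 3, and the summed linear signal was 17010, 41630 and 52860 in these arrays against 16940 to 21120 in controls. With KO eTreg 1 left out 10 of 11 rose (3.62% of all did) and the median was 1.34. In this list 3 rose with KO eTreg 2 left out and 0 with KO eTreg 3 left out. The 13 macrophage markers that rose moved with these genes, and their part in the rise of class II genes was not tested.

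Class II promoters share a regulatory box, and those of H2-Eb1 and H2-DMb1 are printed to show it in genes that rose. Capitals mark the X box core, searched as CTAGNAAC on both strands. The windows are chr17:34305617-34305916 for H2-Eb1 and chr17:34152941-34153240 for H2-DMb1, both on the plus strand of GRCm38.p6.
H2-Eb1: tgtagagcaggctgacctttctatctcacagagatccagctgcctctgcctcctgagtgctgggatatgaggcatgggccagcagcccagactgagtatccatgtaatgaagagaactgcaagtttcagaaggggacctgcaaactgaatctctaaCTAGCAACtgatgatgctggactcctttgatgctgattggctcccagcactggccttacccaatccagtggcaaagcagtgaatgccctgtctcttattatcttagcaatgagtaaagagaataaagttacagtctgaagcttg
H2-DMb1: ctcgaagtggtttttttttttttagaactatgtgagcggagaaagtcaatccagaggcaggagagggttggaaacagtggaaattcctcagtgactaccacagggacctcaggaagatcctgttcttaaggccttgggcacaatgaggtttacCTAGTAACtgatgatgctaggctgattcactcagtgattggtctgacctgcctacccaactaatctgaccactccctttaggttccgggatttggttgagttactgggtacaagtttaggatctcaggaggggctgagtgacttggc
The core begins at base -94 from the start of H2-Eb1 and -97 from that of H2-DMb1. It was found in 4 of 8 class II promoters in the table (H2-DMb1, H2-Eb1, H2-Eb2 and H2-Ob) and in 3.62% of all promoters. H2-Eb2 (0.43) and H2-Ob (0.25), which hold it too, did not pass the study threshold.

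Lysosomal genes were mostly higher, at smaller size. Of 43 transcript clusters 40 were higher in eTregs labelled KO (44.2% of all), 8 rose (1.90% of all) and 0 fell, with a median of 0.25. The rises lay among the hydrolases, 6 of 20, and the membrane proteins and cofactors, 2 of 9, while 0 of 14 subunits of the proton pump (V-ATPase) rose. Cd63, a membrane protein of late endosomes, was at 9.86, 11.98 and 12.38 against 9.92, 10.27, 9.98 and 9.96 (log2 1.38, adjusted P = 0.268). The cysteine protease Ctsh was at 8.58, 11.30 and 11.74 against 8.60, 9.69, 9.45 and 8.94 (log2 1.37, adjusted P = 0.450). KO eTreg 1 was below every control for both. Lgmn, legumain, was at 11.41, 12.88 and 12.61 against 11.15, 11.45, 11.24 and 11.32 (log2 1.00, adjusted P = 0.167). The proteases Ctsc (0.58), Ctsz (0.53) and Ctsd (0.53), the glucuronidase Gusb (0.53) and the membrane glycoprotein Gpnmb (0.53) were closer to the threshold. Lamp1 differed by 0.33, Lamp2 by 0.08 and Ctsb by 0.23.

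The deviation of the lysosome list was -0.10 in KO eTreg 1, 0.43 in KO eTreg 2 and 0.39 in KO eTreg 3, against -0.11 to 0.16 in controls. With KO eTreg 1 left out, 18 of 43 rose (3.62% of all did) and 9 passed the adjusted threshold (2.04% of all), with a median of 0.39. Leaving out KO eTreg 2 gave 3 rises and leaving out KO eTreg 3 gave 4. Macrophage markers moved in the same arrays, and their part was not tested. Ctsd is printed, chr7:142387778-142388077 on the minus strand, beside Siglech, chr7:55767934-55768233 on the plus strand, because each holds the CLEAR core of lysosomal promoters in a gene that rose. Capitals mark that core, searched as TCACGTGA, a palindrome.
Ctsd: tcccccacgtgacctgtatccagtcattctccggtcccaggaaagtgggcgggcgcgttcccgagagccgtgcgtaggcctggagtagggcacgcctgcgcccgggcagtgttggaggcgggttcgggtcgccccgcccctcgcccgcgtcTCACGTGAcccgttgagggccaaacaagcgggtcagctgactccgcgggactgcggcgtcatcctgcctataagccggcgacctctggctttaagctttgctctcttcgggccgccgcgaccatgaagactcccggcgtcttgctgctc
Siglech: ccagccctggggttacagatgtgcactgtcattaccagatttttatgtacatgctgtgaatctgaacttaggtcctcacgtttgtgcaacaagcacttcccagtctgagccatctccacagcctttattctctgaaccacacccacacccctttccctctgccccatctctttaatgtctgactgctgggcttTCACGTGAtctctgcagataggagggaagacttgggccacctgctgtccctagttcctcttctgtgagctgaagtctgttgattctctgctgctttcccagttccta
The core begins at base -99 from the start of Ctsd and -57 from that of Siglech. It was found in 5 of 31 lysosomal promoters in the table (Atp6v0d1, Atp6v1a, Ctsa, Ctsd and Mcoln1), of which only Ctsd rose, and in 0.974% of all promoters. Among the 7 lysosomal genes in the table that rose, 14.3% held it, against 16.1% of the 31. Siglech is not in the lysosome list, and the share of all rises that hold the core was not counted.

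**Figure D4:**
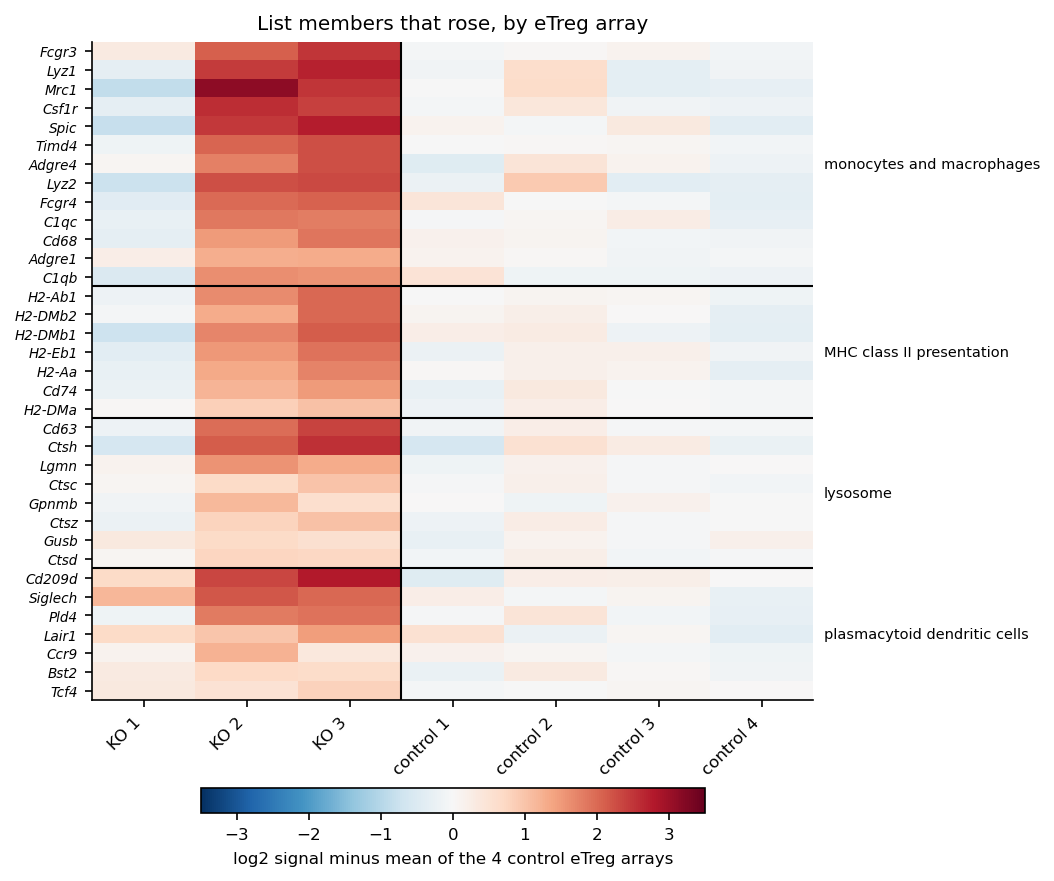
Members of 4 lists that rose in eTregs labelled KO, by array. Colour is the log2 signal minus the mean of the 4 control eTreg arrays, red for higher. The column of KO eTreg 1 is pale or blue for nearly all macrophage, class II and lysosome genes and red for the plasmacytoid dendritic cell genes Siglech and Cd209d, and the columns of KO eTregs 2 and 3 are red throughout.

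The colour map of single arrays separates the macrophage block from the plasmacytoid one. Plasmacytoid dendritic cells produce type I interferon, and of 12 of their markers 7 rose (1.90% of all transcript clusters did) and 0 fell, with a median of 0.55. Beside Siglech and Cd209d these were Pld4 (1.19), Lair1 (1.03), Ccr9 (0.57), Bst2 (0.55) and Tcf4 (0.55). Tcf4, the transcription factor that specifies this lineage, was at 10.65, 10.83 and 11.11 against 10.25, 10.31, 10.38 and 10.33, with no overlap. Pld4 followed the macrophage pattern, at 9.69, 11.65 and 11.73 against 9.78, 10.28, 9.73 and 9.55. Cox6a2 (0.04), Spib (0.00) and Runx2 (-0.15), markers of the same cells, did not pass the test. The list deviated by 0.30 in KO eTreg 1, 0.63 in KO eTreg 2 and 0.51 in KO eTreg 3, and by -0.12 to 0.13 in controls, and its summed linear signal was 11600, 17470 and 17780 against 9359 to 10920. All 3 arrays labelled KO were thus above the controls. The count was again 7 without KO eTreg 1, and it was 5 at the fewest without any 1 array.

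Other lineages moved less than the macrophage and plasmacytoid markers. Of all transcript clusters 1.90% rose, and 3.62% without KO eTreg 1. The shares that rose were 33.3% for conventional dendritic cells, 26.7% for CD8 T and NK cells and 22.2% for plasma cells. They were 7.69% for B cells and 7.14% for neutrophils. Of 12 markers of conventional dendritic cells 4 rose, Clec4a4 (1.21), Cd209a (1.03), Itgax (0.79) and Xcr1 (0.64), while Zbtb46 (-0.04), Flt3 (-0.10) and Clec9a (-0.08) did not pass; leaving out KO eTreg 1 gave 6 and leaving out KO eTreg 3 gave 1. The summed linear signal of this list was 4444 to 8486 in arrays labelled KO and 4422 to 4989 in controls. Of 15 markers of CD8 T and NK cells 4 rose, among them the granzyme Gzmk (1.03) and the transcription factor Eomes (0.91), with Klrd1 (1.17) and Klrk1 (0.56), and 6 rose without KO eTreg 1. Their summed linear signal was 6911 to 10920 in arrays labelled KO and 6916 to 7618 in controls. Cd8a was at 9.57, 9.09 and 9.34 against 9.05 to 9.22 (log2 0.24), and Nkg7 and Ccl5 were at -0.05 and -0.08. Of 13 B cell markers 11 were higher, with a median of 0.21 (0.37 without KO eTreg 1), and 1 rose, Bank1 (0.61), which lost its call without KO eTreg 3 or control eTreg 1. Their summed linear signal was 5149 to 6310 in arrays labelled KO and 4580 to 4922 in controls, with no overlap. Cd79b was at 0.51 and Cd79a at 0.40, both parts of the B cell receptor, and Ms4a1, which encodes CD20, at -0.23. Of 9 plasma cell markers the immunoglobulin joining chain Jchain (1.41) and Mzb1 (0.82) rose, and leaving out KO eTreg 1 gave 3, and leaving out KO eTreg 2 or 3 gave 1. Of 14 neutrophil markers 1 rose, Cxcr2, and 0 without KO eTreg 2, and of the markers of erythroid cells (11), mast cells and basophils (9), platelets (8) and stromal cells (11) 0 rose and 0 fell. Without KO eTreg 1 the mast cell marker Kit rose by 1.88 (adjusted P = 0.0253), and the summed linear signal of that list was 2252, 5367 and 6369 in KO eTregs 1, 2 and 3 against 2573 to 3414 in controls.

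The Treg programme itself differed little with all eTreg arrays kept. Of 17 Treg identity transcript clusters 0 rose and 0 fell, and the median was -0.05. Ikzf2, which encodes the Treg factor Helios, was at 11.92, 12.08 and 12.12 against 12.27, 12.28, 12.33 and 12.51 (log2 -0.31), lower in every array labelled KO but under the fold limit. Of 38 effector Treg transcript clusters Havcr2, which encodes TIM-3, rose by 0.72 and Tigit, an inhibitory receptor, fell by 0.64. Tigit was at 9.67, 11.05 and 10.94 against 11.03, 11.26, 11.25 and 11.26, so the fall came from KO eTreg 1, and the log2 difference was -0.20 without it. Without that array 8 of the 38 effector transcript clusters rose (3.62% of all did) and 0 fell (1.36% of all). Their median turned from -0.06 to 0.20. The effector list deviated by -0.48 in KO eTreg 1, 0.09 in KO eTreg 2 and 0.27 in KO eTreg 3, against -0.17 to 0.18 in controls.

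The central Treg list, of genes higher in resting cells, ran opposite to this between arrays. It deviated by 0.43 in KO eTreg 1, 0.26 in KO eTreg 2 and 0.06 in KO eTreg 3, against -0.01 to 0.03 in controls. Of 22 transcript clusters 19 were higher and 2 rose, Cnn3 (0.98) and Ly6c1 (0.63), with a median of 0.18. Ly6c1 lost its call without KO eTreg 1, where 1 of the 22 rose, and 7 rose when KO eTreg 3 was left out. Ccr7 (-0.02), Il7r (0.00) and Tcf7 (0.03), which mark resting T cells, were level. Low Cd44 in KO eTreg 1 moved with these values, and its part was not tested.

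**Figure D5:**
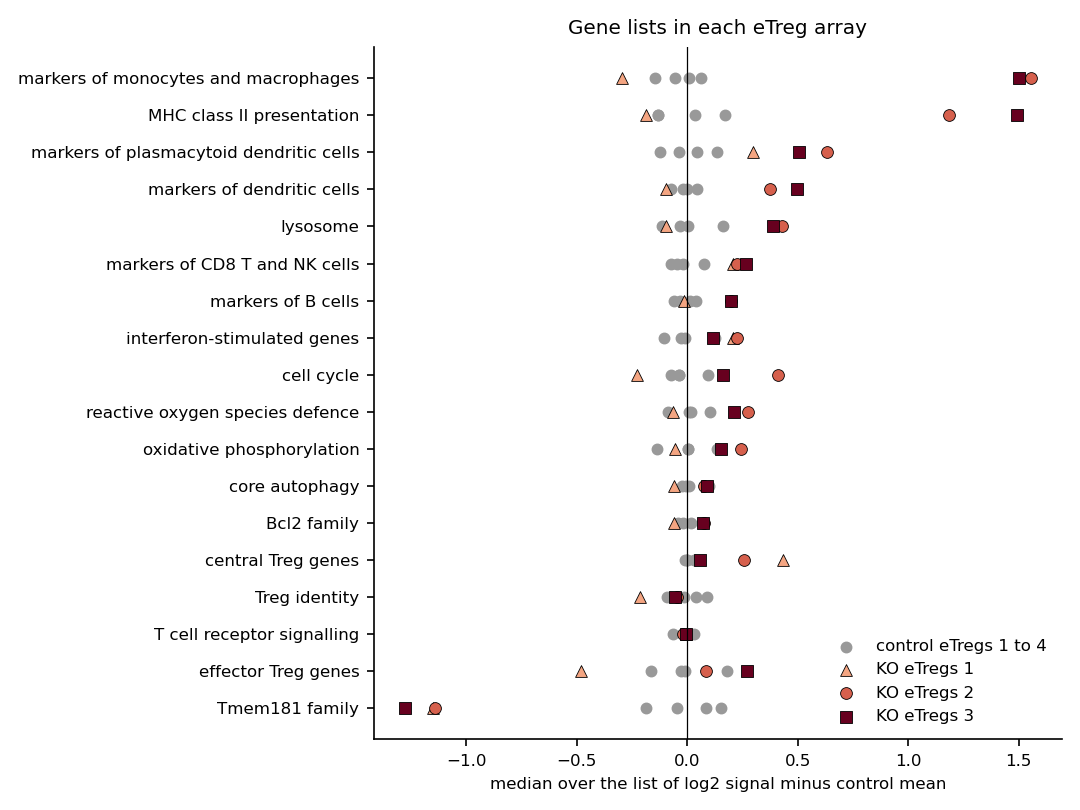
Gene lists in each eTreg array. The x axis is the median over the list of log2 signal minus the mean of the 4 control eTreg arrays, grey points are controls and coloured symbols are the 3 arrays labelled KO. For macrophage, class II and lysosome genes KO eTreg 1 lies among the controls or below them while KO eTregs 2 and 3 lie to the right, and for the Tmem181 family all 3 lie to the left.

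The plot of lists by array also shows core autophagy, which stayed near 0. It does not show the subunits of the Vps34 complexes, which had a median of 0.12. Of 41 core autophagy transcript clusters 0 rose and 0 fell, with a median of 0.04, and none of the initiation (14), conjugation (17), cargo receptor (5) or fusion and transcription (5) genes passed. Atg16l1, needed to attach LC3 to membranes, was at 0.43 and the cargo receptor Nbr1 at 0.41. Among the 7 subunits of the Vps34 complexes, Pik3r4 was at 0.39, Rubcn at 0.36, Uvrag at 0.12, Becn1 at -0.07, Pik3c3, the kinase itself, at -0.08 and Nrbf2 at -0.25. None passed the study threshold. Pik3r4 was at 0.62 and rose without KO eTreg 1, as did 2 of the autophagy genes.

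Interferon-stimulated genes, which cells switch on in answer to interferon, were slightly higher as a list. Of 32 transcript clusters 28 were higher (44.2% of all), 6 rose (1.90% of all) and 1 fell (0.820% of all), with a median of 0.21. The antiviral genes Ifi44 (0.62), Rtp4 (0.60), Oas2 (0.60), Parp9 (0.60), Ifit1 (0.58) and Bst2 (0.55) rose, and Ifit2 fell by 0.51. Ifi44 was at 8.54, 8.67 and 8.54 against 7.71, 8.44, 7.66 and 8.04, above every control in each array. The list deviated by 0.21, 0.22 and 0.12 in KO eTregs 1, 2 and 3, and by -0.11 to 0.13 in controls, so control eTreg 2 lay between them. Without KO eTreg 1 the number that rose was 4. Of 11 transcript clusters of interferon-inducible GTPases all 11 were higher, with a median of 0.18, and only Irgm2 (0.51) rose, which lost its call without KO eTreg 1, KO eTreg 2 or control eTreg 2. The response element core printed above was found in 12 of 22 promoters of the interferon list and in 7 of 7 of the GTPases in the table.

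Growth and survival genes gave few calls, where 1.90% of all transcript clusters rose (3.62% without KO eTreg 1). Of 40 cell cycle transcript clusters 5 rose (Ccne2, Kif11, Top2a, Plk1 and Ccne1, by 0.51 to 0.55), with a median of 0.16; leaving out KO eTreg 1 gave 12 and leaving out KO eTreg 2 gave 2. Top2a, the topoisomerase of dividing cells, was at 8.80, 9.84 and 9.44 against 8.68, 8.79, 8.87 and 8.95. Of 38 Myc-linked ribosome genes Dkc1 (0.63) and Srm (0.57) rose, and of 31 genes of defence against reactive oxygen species Hmox1 (1.04), the heme oxygenase, and Gclm (1.01), of glutathione synthesis. Hmox1 was at 9.14, 10.96 and 10.56 against 9.48, 8.98, 9.28 and 8.96, the macrophage pattern again, and 5 genes of this list rose without KO eTreg 1. Gclm owed its size to control eTreg 1 at 6.43, where the other controls were at 8.396 to 8.62, and it was at 0.48 without that array. Of 78 oxidative phosphorylation transcript clusters 69 were higher (44.2% of all transcript clusters were), with a median of 0.11, and 0 rose. With KO eTreg 1 left out the median was 0.21 and 1 rose, Ndufv1 (0.51), a subunit of complex I. Of 18 Bcl2 family members 0 rose and 0 fell. In the list of death receptors and caspases, 24 genes that include some of neither kind, only Hmox1 rose. With KO eTreg 1 left out 3 did, Hmox1 (1.58), Anxa1 (0.65) and Clu (0.55), none of them a death receptor or caspase. Hmox1 and Anxa1 were then at the adjusted threshold. For 29 immediate early genes (1 rise, Atf3 at 0.75), 28 of T cell receptor signalling (0) and 23 of cholesterol synthesis and uptake (0) the medians were 0.02, 0.01 and -0.02, of which the first and the second changed sign when each array's 75th percentile was subtracted. Atf3 lost its call without KO eTreg 2, KO eTreg 3 or control eTreg 1.

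The study also defined genes that rise or fall in Tregs without Vps34 on other arrays, and their behaviour with the Atg14 genotype was counted. Of 205 transcript clusters of the Vps34-suppressed list, which rise when Vps34 is lost, 72 rose and 4 fell (1.90% and 0.820% of all), with a median of 0.34. None was at the adjusted threshold, but 69 were with KO eTreg 1 left out. Among the largest were Fcgr3, Ear12 (1.63), Mrc1, Tns3 and Csf1r, of which Fcgr3, Mrc1 and Csf1r are macrophage markers. Of the 205, 21 were in the cell type marker or class II lists and 14 of these rose. The list deviated by 0.06 in KO eTreg 1, 0.36 in KO eTreg 2 and 0.27 in KO eTreg 3, against -0.05 to 0.02 in controls. With KO eTreg 1 left out 83 rose and 9 fell, whereas 43 rose with KO eTreg 2 left out and 36 with KO eTreg 3 left out. Of 205 transcript clusters of the Vps34-activated list 7 rose and 15 fell, with a median of -0.06. Without KO eTreg 1, 33 rose and 7 fell (3.62% and 1.36% of all), and the median was 0.18. Among the 15, Abcb1a, a drug efflux pump, was at 11.004, 11.20 and 11.29 against 11.68, 12.08, 12.06 and 11.68 (log2 -0.71, adjusted P = 0.251), Eea1, an endosomal tether that binds phosphatidylinositol 3-phosphate, was at 10.56, 11.12 and 11.36 against 11.68, 11.43, 11.77 and 11.56 (log2 -0.60, adjusted P = 0.264), and Csf1 fell by 0.66. Abcb1a, Eea1 and Csf1 were lower in every array labelled KO than in any control and are named after their values were seen. Without KO eTreg 1 Abcb1a was at -0.63 and kept its call, while Eea1 (-0.37) and Csf1 (-0.41) were under the fold limit.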

How the data were processed

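Signals of 14 Clariom S mouse arrays, 7 of eTregs and 7 of cTregs, were deposited as log2 values that the authors had made with the RMA algorithm in Affymetrix Expression Console 1.1, which corrects background, equalises the distributions of the arrays and summarises probes. These steps compress differences of dim transcripts and remove any change shared by most transcripts. The array annotation's genome build is not given in the sources used here. Of 28846 entries, 6640 control probe sets and 3 without a symbol were left out, and 22203 transcript clusters of 21902 symbols were tested. The highest array median of 23 background control probe sets, 6.30, served as background limit. Read depth does not apply, and the number of arrays limits precision.

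Groups were taken from the labels. The 14 arrays entered 1 fit of 4 group means in limma 3.58.1 (R 4.3.3, data.table version 1.17.8) with empirical Bayes variances (10 residual and 5.65 prior degrees of freedom), and the eTreg genotype difference, the cTreg difference and their interaction were read from it. P values were adjusted by Benjamini-Hochberg over all 22203. The fit was first tested on simulated data. Promoter searches and plots used Python 3.11.15, pandas 2.3.3 and matplotlib 3.10.9. Motif letters were searched on both strands of 32851 RefSeq promoters (GRCm38.p6).

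Named genes were Atg14, the 5 markers Slfn8, Eps8l1, Havcr1, Siglech and Sulf2, all at the adjusted threshold, the 12 largest rises and 12 largest falls without overlap, list members at the study threshold, and up to 4 further members of each list that carry its name or were followed by the study. The members, 31 gene lists and these rules were chosen with earlier results of these data known. The study picked its Vps34-suppressed and Vps34-activated lists on other arrays.

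The alternatives were each of the 14 arrays left out, dim transcript clusters left out, and array medians or 75th percentiles subtracted. Others were eTreg arrays only, array weights, the replicate number as a block, and a trended robust prior. A further alternative took genotype and replicate number together as a random block. This block assumed that cTreg and eTreg arrays sharing both came from the same host, which the labels do not state.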

Additional observations from a re-analysis of the deposited data

Results flagged for a closer look

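In 6 of the 101 named transcript clusters 1 of the 4 control eTreg arrays lay far from the other 3 by Dixon's ratio, the gap to the nearest array divided by the range of the group; chance gives about 1 in 20. C1qb, a complement subunit of macrophages, was at 10.05 in control eTreg 1 against 9.38 to 9.42 (ratio 0.939). Gclm was at 6.43 in control eTreg 1 against 8.396 to 8.62 (0.896), and Tigit at 11.03 in the same array against 11.25 to 11.26 (0.953). Lyz2 was at 10.26 in control eTreg 2 against 8.98 to 9.14 (0.877). Gzmk was at 8.53 in control eTreg 3 against 7.96 to 7.98 (0.962). Scp2 was at 7.98 in control eTreg 4 against 8.32 to 8.37 (0.872).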

How the results depend on the processing

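The number of transcript clusters at the study threshold, 604, ranged from 564 to 1104 when 1 array was left out, the highest without KO eTreg 1, and was 542 to 633 under the alternatives that kept all eTreg arrays at equal weight. The number at the adjusted threshold, 26, ranged from 10 to 452 when 1 array was left out. Leaving out control eTreg 4 gave 10, control eTreg 3 gave 11, either KO eTreg 3 or control cTreg 3 gave 16, KO eTreg 2 gave 17, and KO eTreg 1 gave 452. It was 10 when only the eTreg arrays were fitted, 8 of them among the 26, and 435 with array weights, all 26 among them. The array numbered 1 had the lowest weight of each group, 0.389 for KO eTreg 1 and 0.357 for KO cTreg 1. That weight was 0.485 for control eTreg 1 and 0.819 for control cTreg 1. Subtracting array medians gave 18. The cause of these shifts was not tested.

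With the replicate number as a block, 633 passed the study threshold and 33 the adjusted one, 21 of them among the 26; Sulf2, 1700025G04Rik, Ica1, Folr2 and Armcx2 were lost. The numbers were not taken as pairing the genotypes, since the labels do not state such a pairing. Deviations of control eTreg arrays and eTreg arrays labelled KO with the same number correlated at 0.29, 0.28 and 0.01. Those of eTreg and cTreg arrays labelled KO with the same number were close to this (0.30, 0.29 and 0.04). A part shared by arrays of the same number across genotypes was not tested. No named change reversed under any alternative in which it was tested. Of the 26 adjusted calls 6 held in all 22. Of 74 named at the study threshold only, 27 held in all alternatives in which they were tested. Array number limits what could be detected, and differences of transcripts under the background limit have no exact size.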

Other observations

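Kit, the stem cell factor receptor of mast cells and progenitors, was at 8.26, 11.81 and 12.21 in eTregs labelled KO and at 9.61 to 10.76 in controls, a log2 difference of 0.63 that did not pass the study threshold and 1.88 without KO eTreg 1 (limma adjusted P = 0.0253). Of 1455 transcript clusters with olfactory or vomeronasal receptor symbols, 5 fell and 1 rose in eTregs labelled KO. Of the 422 rises 27 had a control mean under the background limit, and of the 182 falls 13 had a mean under it in eTregs labelled KO.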
